A study of Homo sapiens with 8 samples.

Results

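The androgen-regulated genes described here are 46 genes chosen by name for their known response to androgen in prostate cells, of 78691 genes in the count table. Androgen-induced genes make up 42 of them, and 4 (CAMK1D, PELI2, CPT1C and OPRK1) are androgen-repressed genes that were read separately. The names matched 47 rows, because HERC3 occurs in 2 rows, and the row with more counts was kept. RNA-seq was performed on 8 libraries from a pair of human prostate cancer cell lines, with 2 libraries in each of 4 groups. C4-2B, an adenocarcinoma line derived from LNCaP, carried either an empty vector (C4-2B control) or a lentiviral vector driving human MYCL together with EGFP from the EF1A promoter (C4-2B MYCL). NCI-H660, a neuroendocrine prostate cancer line, carried either a non-targeting control (NCI-H660 shCtrl) or RNA interference against MYCL (NCI-H660 shMYCL). The series text names an adenoviral vector for the knockdown while the sample labels speak of stable shRNA, so the vector behind these libraries is not settled. Both lines were grown in serum-containing RPMI-1640 medium, and no group was given or deprived of androgen. Which hairpin was used and whether a group came from 1 clone are not given in the sources used here. The labels call the C4-2B control libraries biological replicates and give no more for the others, so p-values measure the spread between these libraries only.

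Androgen acts on transcription through DNA elements built from copies of a short half-site arranged as an inverted repeat. In luminal prostate cells it turns on genes for secreted proteases such as prostate-specific antigen, for transporters, and for lipid and sugar metabolism, and it holds a smaller group of genes low. Neuroendocrine prostate cancers commonly lose this program, and NCI-H660 is known to carry a fusion that places ERG under the androgen-responsive TMPRSS2 promoter.

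MYCL itself checked the labels. Its level in normalized CPM (counts scaled to library size, with TMM factors set within a cell line) was 11.4 and 13.4 in C4-2B control and 3554 and 4018 in C4-2B MYCL. It was 110 and 86.7 in NCI-H660 shCtrl and 10.9 and 12.7 in NCI-H660 shMYCL, so that every library stood on the side its label gives. Library totals ranged from 15177071 to 32344170 estimated counts, and mitochondrial genes took 9.63 to 10.7% of the counts in C4-2B and 3.50 to 3.83% in NCI-H660. The summed level of 6 luminal markers was 1211 to 1339 TPM (counts scaled to gene length and library size) in C4-2B. In NCI-H660 it was 2285 to 2443 TPM, a sum that does not stand for each marker. Between control cells, 3 of the 6 were called lower and 2 higher in NCI-H660 (limits below), with a median log2 fold change of -1. The summed level of 6 neuroendocrine markers was at most 1.09 TPM in C4-2B and 825.7 to 1234 TPM in NCI-H660.

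The levels of the androgen-induced genes separated the control cells of the lines first. In C4-2B control, 41 of the 42 stood at 1 TPM or more and 15 at 100 TPM or more, with a median of 46.0 TPM. In NCI-H660 shCtrl, 31 stood at 1 TPM or more and 7 at 100 TPM or more, with a median of 10.8 TPM. Their summed level was 6524 and 6482 TPM in C4-2B control, 4608 and 4292 TPM in C4-2B MYCL, 2872 and 2571 TPM in NCI-H660 shCtrl, and 2428 and 2497 TPM in NCI-H660 shMYCL. Both C4-2B MYCL libraries were below both control libraries, with or without TPD52. In NCI-H660 the difference lay in TPD52, a gene not called there, at 1197 and 1027 TPM in shCtrl and 846 and 866 TPM in shMYCL. Without TPD52 the sum was 1674 and 1544 TPM in shCtrl and 1583 and 1631 TPM in shMYCL, and the groups overlapped. No induced gene was at 0 counts in a C4-2B library, whereas 6 to 9 were at 0 in each NCI-H660 library.

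**Figure D1:**
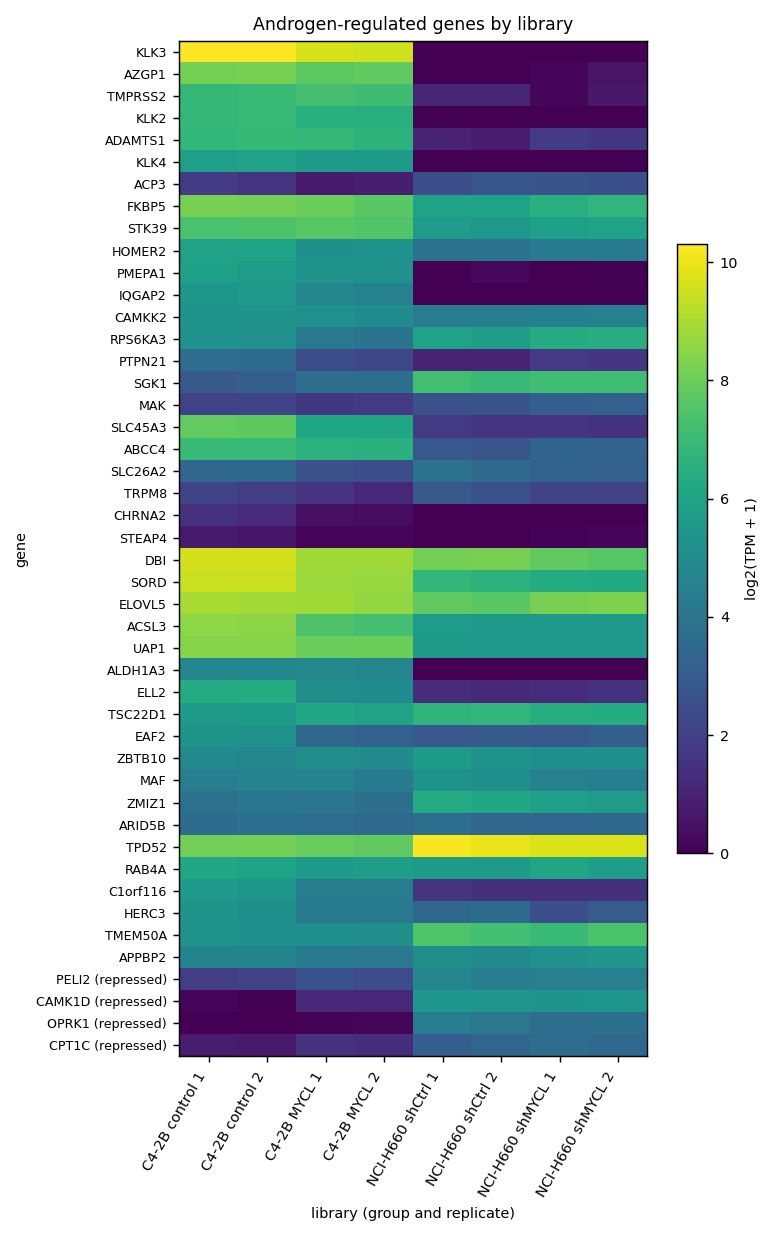
Level of the 46 androgen-regulated genes (rows, ordered by role and then by level in C4-2B control) in each of the 8 libraries (columns), colored by log2(TPM + 1). The kallikreins, AZGP1, PMEPA1, IQGAP2 and ALDH1A3 are at or near 0 in the NCI-H660 libraries, and the 4 androgen-repressed genes at the bottom are lowest in C4-2B control.

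KLK3 was the most abundant of these genes in C4-2B control, at 1262 ± 7.29 TPM (SD, n = 2), which was 19.4% of their summed level. DBI, an acyl-CoA-binding protein, followed at 794 ± 5.79 TPM, then SORD, which converts sorbitol to fructose, at 716 ± 2.41 TPM, and the fatty acid elongase ELOVL5 at 480.5 ± 16.6 TPM. Each of these neighbors differed by more than its spread, but FKBP5 (289 ± 9.81 TPM) and AZGP1 (289 ± 2.73 TPM) further down the order did not. In NCI-H660 shCtrl the vesicle-trafficking gene TPD52 led at 1112 ± 120 TPM and made up 39.5% of the summed level, followed by DBI at 290 ± 5.92 TPM and ELOVL5 at 212 ± 11.9 TPM. TMEM50A (162 ± 18.7 TPM) and SGK1 (134 ± 13.7 TPM) came next, and their means differed by more than either SD, while SORD stood at 105 ± 12 TPM.

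NCI-H660 control cells were compared with C4-2B control cells gene by gene, which asks how far the androgen program differs between a neuroendocrine and an adenocarcinoma line. A gene was called when edgeR's quasi-likelihood test gave a Benjamini-Hochberg adjusted p under 0.05 and the log2 fold change was at least 0.5 in either direction. Of the 42 induced genes, 29 were lower and 5 higher in NCI-H660, beside 33.3% lower and 36.5% higher (69.8% in all) among the 19605 genes tested. The median log2 fold change was -2.74, against 0.03 over all genes. KLK2, KLK3, KLK4, AZGP1, ALDH1A3, IQGAP2, CHRNA2, PMEPA1 and STEAP4 had at most 2 counts in either NCI-H660 shCtrl library. They passed the filter on low counts through the C4-2B libraries alone, so their calls are descriptions. Among genes with at least 10 counts in every library, the median was -1.60, against -0.0135 over all genes. Cell line, vector and medium supplements cannot be told apart in this comparison. On the TPM scale, the share of calls that were higher moved from 52.2 to 71.1% over all genes and the median of all genes stood at 0.53, and 11 rather than 5 induced genes were called higher.

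Several secreted products of luminal cells were at or near 0 in NCI-H660, though ACP3 was not. KLK3 (prostate-specific antigen, a protease of seminal fluid), KLK2 (a related protease) and KLK4 had no count in any NCI-H660 library. Set against a floor of 3 counts in each NCI-H660 shCtrl library, they were at least 8142-fold, 1681-fold and 340-fold higher in C4-2B control. AZGP1, a secreted zinc-binding glycoprotein, was at least 1507-fold higher, IQGAP2, a scaffold protein, at least 1338-fold, and ALDH1A3, a retinaldehyde dehydrogenase, at least 447-fold. CHRNA2, a nicotinic receptor subunit, was at least 33.5-fold higher. PMEPA1, an inhibitor of TGF-beta signaling, had 2 counts in NCI-H660 shCtrl and a ratio of 3856 with a 95% counting interval of 1067 to 31850. STEAP4, a metalloreductase, also had 2 counts and a ratio of 48.9 with an interval of 13.3 to 408. Floors and intervals cover counting error only.

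Other induced genes were still counted in NCI-H660, TMPRSS2 at a far lower level than in C4-2B. TMPRSS2, a transmembrane serine protease, was at 117 and 124 TPM in C4-2B control and at 1.09 and 1.11 TPM in NCI-H660 shCtrl. It was called lower there (log2 fold change -7.88 ± 0.17, edgeR adjusted p = 2.81e-13). ACP3, the prostatic acid phosphatase, was at 2.53 and 1.93 TPM in C4-2B control and at 4.59 and 5.72 TPM in NCI-H660 shCtrl, and was not called on counts (log2 fold change 0.10 ± 0.30, SE). In the opposite direction, SGK1, a serum- and glucocorticoid-regulated kinase, was at 6.40 and 7.42 TPM in C4-2B control and at 144 and 125 TPM in NCI-H660 shCtrl (log2 fold change 3.68 ± 0.10, edgeR adjusted p = 1.45e-12). NR3C1, the glucocorticoid receptor and another regulator of SGK1 and FKBP5, was at 3 and 0 counts in C4-2B control and at 23.7 and 22.8 TPM in NCI-H660 shCtrl. FKBP5 went the other way from SGK1 and was called lower in NCI-H660 (log2 fold change -2.74 ± 0.09, edgeR adjusted p = 1.03e-11). The part of NR3C1 in these levels was not tested. ZMIZ1, a transcriptional coactivator, was higher by 1.77 on the log2 scale, TMEM50A by 1.69, TPD52 by 1.37 and TSC22D1, a leucine zipper protein, by 0.51. The call for TSC22D1, just past the fold limit, held in 4 of the 8 fits that left out 1 library (0.46 to 0.57). It ended without C4-2B control replicate 1, C4-2B MYCL replicate 1, C4-2B MYCL replicate 2 or NCI-H660 shCtrl replicate 2, and with the control libraries alone in the fit (0.498).

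**Figure D2:**
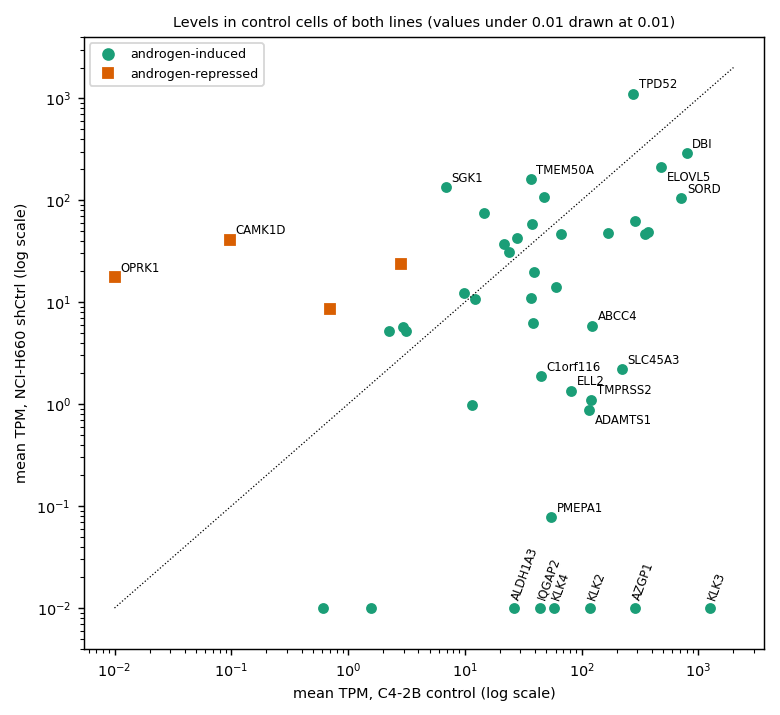
Mean TPM of each androgen-regulated gene in C4-2B control (x axis) against NCI-H660 shCtrl (y axis), both on log scales, with values under 0.01 drawn at 0.01 and the dotted line marking equal levels. KLK3 lies farthest right on the floor of the y axis, and the 4 androgen-repressed genes lie above the line.

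The androgen-repressed genes were high where the induced ones were low. In NCI-H660, 4 of 4 were called higher, beside 36.5% of the 19605 genes tested. CAMK1D and OPRK1 were too low in C4-2B control to pass the filter on low counts through that group, so their calls are descriptions. CAMK1D, a calcium/calmodulin-dependent kinase, was at 0.14 and 0.057 TPM in C4-2B control and at 41.7 and 40.2 TPM in NCI-H660 shCtrl. OPRK1, the kappa opioid receptor, had no count in C4-2B control and was at least 424-fold higher in NCI-H660. PELI2, a ubiquitin ligase of Toll-like receptor signaling, differed by 2.43 ± 0.12 and CPT1C, a neuronal carnitine palmitoyltransferase relative, by 2.97 ± 0.21 on the log2 scale (edgeR adjusted p = 3.42e-10 and 2.13e-08).

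MYCL overexpression in C4-2B was then examined, to ask whether MYCL alters the androgen program of an adenocarcinoma cell. All 42 induced genes passed the filter on low counts. Of these, 18 were lower and 2 higher in C4-2B MYCL, beside 8.12% lower and 11.8% higher (19.9% in all) among the 16866 genes tested, so that 42.9% of the induced genes were called lower. The median log2 fold change was -0.31 against -0.0017 over all genes, and 31 of the 42 had a negative value. On the TPM scale the median of all genes shifted by -0.14 and the share of all calls that were higher fell from 59.2 to 33.5%. Relative to that shift, the median of the induced genes was -0.30 on both scales, with 17 called lower and 1 higher on TPM.

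**Figure D3:**
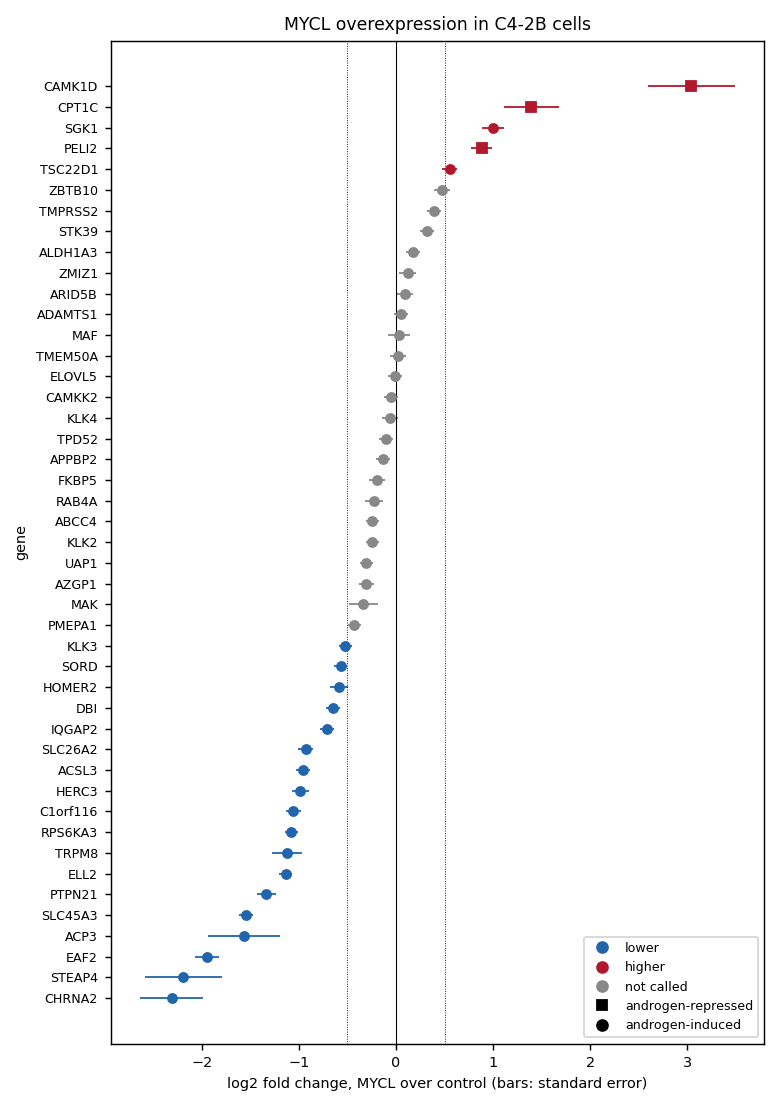
Log2 fold change of the 45 androgen-regulated genes tested in C4-2B MYCL over C4-2B control, with bars for the standard error of the fit, blue for genes called lower, red for genes called higher and gray for genes not called, and dotted lines at the fold limit of 0.5. The 3 tested androgen-repressed genes (squares) are among the 4 highest values, and the lowest values are those of CHRNA2, STEAP4 and EAF2.

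Among the secreted proteins, KLK3 and ACP3 were lower in C4-2B MYCL and KLK2 and KLK4 were not called. The transmembrane protease TMPRSS2, grouped with them by role, was not called either. KLK3 was at 1234 and 1233 CPM in control and 872 and 847 CPM in C4-2B MYCL, and was called lower (log2 fold change -0.52 ± 0.07, edgeR adjusted p = 0.000558), just past the fold limit. KLK2 was at 252 and 258 CPM in control and 212 and 218 CPM in C4-2B MYCL (-0.24 ± 0.07, edgeR adjusted p = 0.0222), with groups that did not overlap but a fold too small to be called. KLK4 was at 49.8 and 53.9 CPM against 48.0 and 51.4 CPM, and the groups overlapped (-0.06 ± 0.08, edgeR adjusted p = 0.628). TMPRSS2 stood higher in both C4-2B MYCL libraries, at 283 and 303 CPM in control against 395 and 375 CPM, again under the fold limit (0.39 ± 0.07, edgeR adjusted p = 0.00346). ACP3 was the secreted member with the widest gap, at 5.32 and 4.50 CPM in control and 0.98 and 2.35 CPM in C4-2B MYCL (-1.57 ± 0.37, edgeR adjusted p = 0.0109). Of the 7 genes of this role, 2 were lower and none higher, and the protease ADAMTS1 was at 0.06 ± 0.07. KLK2 and KLK3 are neighboring genes of one family, but shared only 11 of the 6861 and 5074 stretches of 50 bases in their annotated transcripts, so little of either could take the other's reads.

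Promoter sequence was read for the members with a RefSeq window (250 bases before to 50 after the start, GRCh38.p14), which 37 of the 46 had. Both strands were searched for the half-site AGAACA of the androgen response element, for its inverted repeat with a spacer of 3 bases, and for the E-box CACGTG, the element that MYC family proteins bind with MAX. None of the 34 induced genes with a window held the full inverted repeat, which occurred in 0.00285% of all 35116 windows. The half-site occurred in 9 of the 34 (26.5%), against 17.5% of all 27305 genes with a window. The E-box occurred in 7 of the 34 (20.6%), against 8.77%. These shares count a gene if any of its windows matched, and genes differ in their number of windows. By window, the half-site occurred in 16.9% of the 65 windows of all members, against 14.8% of all windows. The E-box occurred in 12.3% of them, against 7.26%. A match describes the letters only, and binding was not measured. The KLK3 window is shown because its half-site begins 170 bases before the start, where the proximal androgen response element of this gene is known to lie, SLC26A2 because it was lower and has an E-box, IQGAP2 because it was lower and has a half-site, and CAMK1D as the androgen-repressed gene with a half-site. These 250 bases before the start hold no exon of GENCODE 44 and are given 5′ to 3′ on the strand of the gene (+ for each), with the motif in capitals (TGTTCT is the half-site read on the other strand), at chr19:50854665-50854914 for KLK3, chr5:149960508-149960757 for SLC26A2, chr5:76547159-76547408 for IQGAP2 and chr10:12388732-12388981 for CAMK1D.
KLK3: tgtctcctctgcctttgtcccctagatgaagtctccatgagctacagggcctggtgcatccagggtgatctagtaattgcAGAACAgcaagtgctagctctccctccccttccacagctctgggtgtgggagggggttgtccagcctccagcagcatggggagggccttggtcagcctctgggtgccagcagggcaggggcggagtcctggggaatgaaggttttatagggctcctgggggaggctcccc
SLC26A2: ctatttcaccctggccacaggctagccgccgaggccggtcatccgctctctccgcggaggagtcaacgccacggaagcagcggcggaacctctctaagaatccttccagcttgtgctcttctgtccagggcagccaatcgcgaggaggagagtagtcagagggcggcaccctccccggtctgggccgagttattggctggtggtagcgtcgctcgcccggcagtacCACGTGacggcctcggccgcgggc
IQGAP2: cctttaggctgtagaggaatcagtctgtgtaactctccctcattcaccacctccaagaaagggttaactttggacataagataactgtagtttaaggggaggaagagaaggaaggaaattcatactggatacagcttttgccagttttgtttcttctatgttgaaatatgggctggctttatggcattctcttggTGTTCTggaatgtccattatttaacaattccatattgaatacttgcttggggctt
CAMK1D: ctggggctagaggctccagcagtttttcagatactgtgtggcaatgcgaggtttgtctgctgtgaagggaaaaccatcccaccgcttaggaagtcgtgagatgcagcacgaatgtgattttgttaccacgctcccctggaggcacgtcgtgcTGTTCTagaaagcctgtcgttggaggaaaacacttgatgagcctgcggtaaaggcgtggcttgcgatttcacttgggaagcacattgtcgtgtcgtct
The CAMK1D and IQGAP2 windows, and the KLK2 window used next, belong to RefSeq starts inside the genes as annotated in GENCODE 44. The KLK3 element and the closest 15 bases of the KLK2 window, beginning 176 bases before the KLK2 start (chr19:50873263-50873277, + strand), differed at 1 position, A1G counted from the 5′ end, with the capitals marking the whole element.
KLK3 element: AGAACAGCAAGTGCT
KLK2 element: GGAACAGCAAGTGCT
Over 170 bases from the first base of the element, compared without gaps, 158 were the same in both promoters (92.9%). That stretch reached the KLK3 start and ended short of the KLK2 start. In C4-2B MYCL, KLK3 was at -0.52 and KLK2 at -0.24 on the log2 scale, and a difference between the genes was not tested.

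The transporters, channels and receptors were the role in which most genes were lower, 5 of 6, with a median log2 fold change of -1.33. Among all genes tested, 8.12% were lower and 11.8% higher, and these shares are the background for the other roles as well. SLC45A3 (prostein, a sugar transporter-like protein of prostate cells) was at 532 and 495 CPM in control and 174 and 177 CPM in C4-2B MYCL (-1.55 ± 0.07, edgeR adjusted p = 4.69e-06). The cold- and menthol-gated channel TRPM8 was at 14.8 and 12.4 CPM against 6.02 and 6.52 CPM (-1.12 ± 0.16, edgeR adjusted p = 0.000822), a call that ended with limma on log2(TPM + 1). STEAP4, with 86 and 53 counts in control against 8 and 11 in C4-2B MYCL (-2.19 ± 0.40), and CHRNA2, at 184 and 102 counts against 22 and 14 (-2.31 ± 0.32, edgeR adjusted p = 0.000834), had the largest fold changes of the induced genes and the lowest counts. STEAP4 passed the filter through the control libraries alone, so its call is a description. In each of the 4 the groups did not overlap, which also held for genes that were not called, such as ABCC4. The sulfate transporter SLC26A2, whose promoter is shown above, was lower by a log2 fold change of -0.93. ABCC4, which exports cyclic nucleotides, was at -0.24 and was not called.

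Among the 10 kinases, chaperones and signaling proteins, 4 were lower and 1 higher. PTPN21, a tyrosine phosphatase, was at 58.9 and 55.4 CPM in control and 24.4 and 20.9 CPM in C4-2B MYCL (-1.33 ± 0.10, edgeR adjusted p = 4.53e-05). RPS6KA3, which encodes the kinase RSK2 downstream of ERK, was at 180 and 183 CPM against 86.1 and 86.0 CPM (-1.08 ± 0.07, edgeR adjusted p = 2.72e-05). IQGAP2 was at -0.71 and the synaptic scaffold gene HOMER2 at -0.59, where HOMER2 lost its call without C4-2B MYCL replicate 1 (-0.46). SGK1 was called higher, from 11.5 and 13.2 CPM to 24.5 and 24.7 CPM (1.00 ± 0.11, edgeR adjusted p = 0.000273). FKBP5, an HSP90 co-chaperone that is among the most widely used androgen and glucocorticoid targets, was at 816 and 804 CPM in control and 753 and 659 CPM in C4-2B MYCL, groups that did not overlap but were not called (-0.20 ± 0.08, edgeR adjusted p = 0.088). CAMKK2, a kinase that activates AMPK, was at -0.05, and STK39, a kinase that regulates ion cotransporters, at 0.32, neither called.

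The metabolic enzymes included 3 of 6 called lower. ACSL3, which activates fatty acids as acyl-CoA, had 1009 and 964 CPM in control and 526 and 487 CPM in C4-2B MYCL (-0.96 ± 0.07, edgeR adjusted p = 5.19e-05). DBI was at -0.65 and SORD at -0.57, while UAP1, which makes the sugar donor UDP-N-acetylglucosamine, was at -0.31, ELOVL5 at -0.01 and ALDH1A3 at 0.18, none of the last called. ALDH1A3 shares 32.1% of its exon bases with an antisense gene, and the strand setting of the counting is not given in the sources used here. The summed level of the 6 enzymes was 2755 and 2712 TPM in control and 1800 and 1708 TPM in C4-2B MYCL.

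Transcription and elongation factors went both ways, with 2 of 7 lower, 1 higher and a median of 0.10. The paired elongation factors EAF2 and ELL2, whose proteins associate with each other, were both lower. EAF2 was at 24.3 and 22.6 CPM in control and 6.51 and 5.66 CPM in C4-2B MYCL (-1.95 ± 0.13, edgeR adjusted p = 2.81e-05), and ELL2 was at 238 and 240.4 CPM against 110 and 107 CPM (-1.14 ± 0.07, edgeR adjusted p = 2e-05). TSC22D1 was higher, from 125 and 128 CPM to 196 and 176 CPM (0.56 ± 0.08, edgeR adjusted p = 0.000823). That call ended without C4-2B MYCL replicate 1 (0.49) and with limma on log2(TPM + 1) (0.45). ZBTB10, a zinc finger protein, was at 0.48, ZMIZ1 at 0.12, the chromatin regulator ARID5B at 0.10 and the bZIP factor MAF at 0.03, none called. Of the 6 remaining genes, C1orf116 (SARG, a gene known by its androgen response) was lower, from 160 and 147 CPM to 74.0 and 73.4 CPM (-1.06 ± 0.08, edgeR adjusted p = 4.25e-05), and so was the HECT-type ubiquitin ligase HERC3 (-0.99). The other HERC3 row overlaps 69.5% of the exon bases of the row used, so the split of reads between them is uncertain. TPD52 (-0.10), APPBP2 (-0.13), RAB4A (-0.23) and TMEM50A (0.02), which act in trafficking or have no settled role, were not called.

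Across the 42 induced genes, the fold change in C4-2B MYCL had a Spearman correlation of 0.13 with the level in C4-2B control. The points are genes of the same libraries and are not independent, so this is a description with no test.

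**Figure D4:**
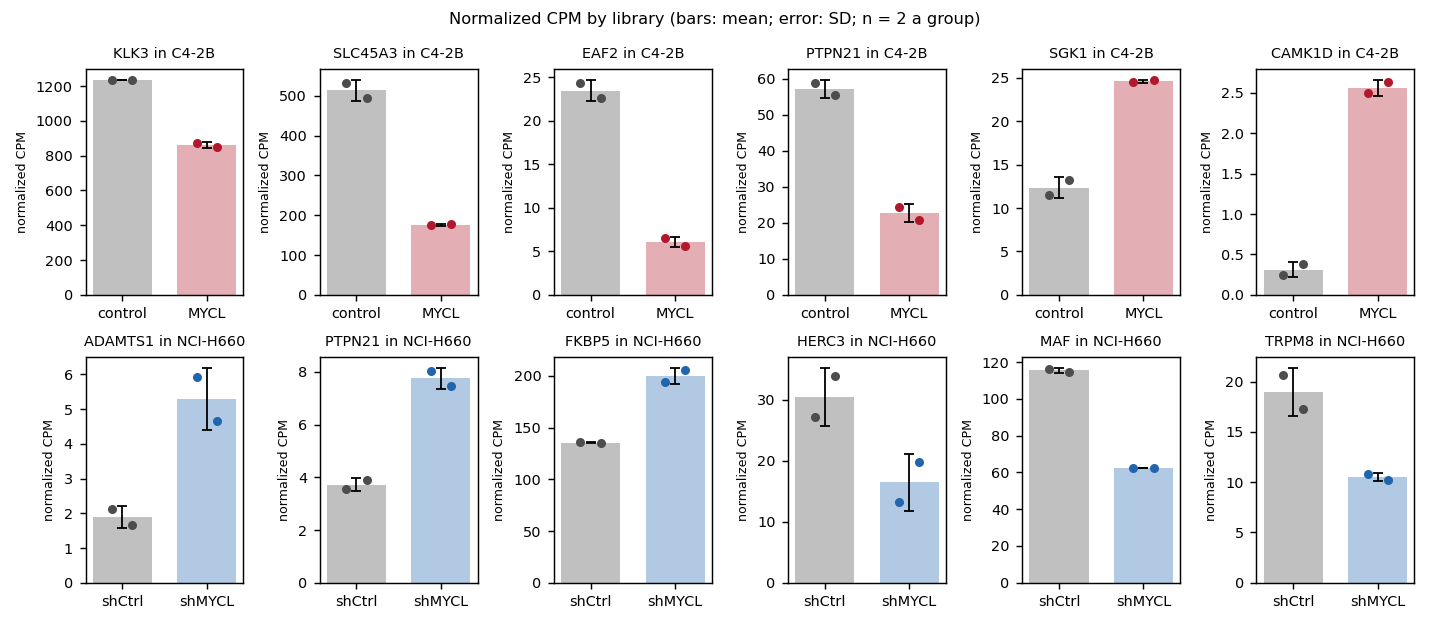
Normalized CPM (y axis, linear from 0, scaled within each cell line) of selected androgen-regulated genes in single libraries (points), with bars for the group mean and error bars for the SD (n = 2). In C4-2B (top), KLK3, SLC45A3, EAF2 and PTPN21 are lower and SGK1 and CAMK1D higher with MYCL, and in NCI-H660 (bottom), ADAMTS1, PTPN21 and FKBP5 are higher and HERC3, MAF and TRPM8 lower with shMYCL.

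The androgen-repressed genes moved the other way in C4-2B, where CPT1C and PELI2 were higher in C4-2B MYCL. CAMK1D had 8 and 9 counts in C4-2B control against 46 and 46 with MYCL, or 0.25 and 0.38 CPM against 2.50 and 2.63 CPM (3.04 ± 0.45). It passed the filter through the C4-2B MYCL libraries alone and so had to differ, and its call is a description. CPT1C was at 1.57 and 1.47 CPM against 4.23 and 3.78 CPM (1.39 ± 0.29, edgeR adjusted p = 0.0054), and PELI2 at 12.7 and 14.5 CPM against 25.5 and 24.3 CPM (0.88 ± 0.11, edgeR adjusted p = 0.000497). OPRK1 had 0 counts in both control libraries and 6 and 2 in C4-2B MYCL, too few for the filter and at least 2.08-fold higher against the floor. The levels reached stayed far below those of NCI-H660 shCtrl, for CAMK1D 1.21 and 1.29 TPM against 41.7 and 40.2 TPM.

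Other genes of the pathway were read from lists of further androgen targets. Of 63 other androgen-induced genes tested, 11 were lower (17.5%) and 10 higher (15.9%), beside 8.12% lower and 11.8% higher among all genes tested. Their median was -0.03, near the median of all genes. HPGD, a prostaglandin dehydrogenase, was lower from 50 and 32 counts to 13 and 4 (-1.61 ± 0.54), and the endoplasmic reticulum co-chaperone DNAJB9 (2.13) and the steroid dehydrogenase HSD17B14 (1.64) were higher. Of 8 other androgen-repressed genes, 6 were higher and none lower (median 0.77), beside the same 11.8% higher among all genes tested. IGFBP5, which binds insulin-like growth factors, went from 1 and 0 counts to 27 and 15. HPGD passed the filter through the control libraries alone, and HSD17B14, IGFBP5, KRT14 and ACTA2 through the C4-2B MYCL libraries alone, so their calls are descriptions and support nothing. IGFBP5 and CLU were picked by the study on these samples, so this list is not independent evidence of its direction. Markers of other cell types stayed near 0. The summed basal markers were at 0.21 and 0.55 TPM in control and 1.37 and 0.97 TPM in C4-2B MYCL, with KRT14 (1.78) the 1 of 2 that was tested, and the summed stromal markers at 0.27 and 0.24 against 1.89 and 2.47 TPM, with ACTA2 (3.22) the 1 of 4 tested. Their part in the results was not tested.

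MYCL knockdown in NCI-H660 asked the converse, in neuroendocrine cells. Of the 42 induced genes, 33 passed the filter, and KLK2, KLK3, KLK4, PMEPA1, STEAP4, ALDH1A3, AZGP1, IQGAP2 and CHRNA2 did not. Among the 33, 5 were higher and 4 lower in NCI-H660 shMYCL, beside 7.18% higher and 8.99% lower (16.2% in all) among the 16980 genes tested. The median log2 fold change was -0.08, against -0.0029 over all genes. It was -0.17 without shMYCL replicate 2, 0.0066 without the filter on low counts and 0.00 with all 4 groups in one fit, so its sign was not stable. The 9 genes outside the test stayed at or near 0: the kallikreins, IQGAP2, ALDH1A3 and CHRNA2 had no count in any of the 4 libraries, and AZGP1 had 0 and 0 counts in shCtrl and 2 and 4 in shMYCL, at least 1.15-fold higher against the floor.

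Of the 5 genes called higher, 3 were signaling proteins, the role with the most genes tested (8), beside 7.18% higher among all genes tested. ADAMTS1, a secreted metalloprotease, was at 36 and 31 counts in shCtrl and 90 and 73 in shMYCL, or 2.12 and 1.68 CPM against 5.92 and 4.66 CPM (1.48 ± 0.31, edgeR adjusted p = 0.00266). PTPN21 was at 3.54 and 3.90 CPM against 8.03 and 7.47 CPM (1.06 ± 0.23, edgeR adjusted p = 0.00365). FKBP5 was at 136 and 136 CPM against 194 and 205 CPM (0.56 ± 0.10, edgeR adjusted p = 0.00101), and ABCC4 at 19.6 and 19.0 CPM against 29.2 and 30.3 CPM (0.62 ± 0.13, edgeR adjusted p = 0.00218). MAK, a kinase of male germ cells and cilia, was at 0.56 ± 0.16 (edgeR adjusted p = 0.016), a call that ended without NCI-H660 shCtrl replicate 1 (0.47), without shMYCL replicate 2 (0.46), and with DESeq2. With limma on log2(TPM + 1), FKBP5 kept its call while ADAMTS1, PTPN21, ABCC4 and MAK did not (limma adjusted p = 0.0543 to 0.105), and RPS6KA3 was called higher there at 0.51 (limma adjusted p = 0.0386).

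The genes called lower were of several roles. MAF was at 116.4 and 114.6 CPM in shCtrl and 62.3 and 62.5 CPM in shMYCL (-0.89 ± 0.10, edgeR adjusted p = 2.56e-05). HERC3 was at 27.1 and 33.8 CPM against 13.2 and 19.7 CPM (-0.89 ± 0.17, edgeR adjusted p = 0.00155), and TRPM8 at 20.7 and 17.3 CPM against 10.8 and 10.2 CPM (-0.85 ± 0.16, edgeR adjusted p = 0.00108). SLC26A2 was at 64.7 and 53.1 CPM against 39.4 and 38.1 CPM (-0.60 ± 0.12, edgeR adjusted p = 0.0023), a call that ended without shCtrl replicate 1 (-0.45). With limma on log2(TPM + 1), MAF and HERC3 kept their calls and TRPM8 and SLC26A2 did not (limma adjusted p = 0.0557 and 0.0723). TMPRSS2 was at 23 and 26 counts in shCtrl and 3 and 12 in shMYCL (-1.498 ± 0.59, edgeR adjusted p = 0.0763) and was not called. It was at -0.84 without shMYCL replicate 1, and at -2.76 and called (edgeR adjusted p = 0.0373) without shMYCL replicate 2, and it passed the filter through the shCtrl libraries alone. ERG, the fusion partner of TMPRSS2, was lower, from 9.62 and 10.9 CPM to 5.86 and 4.98 CPM (-0.92 ± 0.20, edgeR adjusted p = 0.00372). The 4 androgen-repressed genes were all tested and none was called. OPRK1 was at 54.1 and 47.2 CPM against 34.8 and 37.2 CPM (-0.49 ± 0.12, edgeR adjusted p = 0.0074), just under the fold limit, CPT1C was at 0.39 ± 0.16, PELI2 at -0.14 ± 0.11, and CAMK1D, at 144 and 146 CPM against 145 and 145 CPM, was at -0.0007 ± 0.10.

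Further targets in NCI-H660 were again mixed. Of 61 other androgen-induced genes tested, 11 were lower (18%) and 5 higher (8.2%), beside 8.99% lower and 7.18% higher among all genes tested. Their median was 0.00063. GREB1, a hormone receptor coactivator (-2.19), and BMPR1B, a BMP receptor (-1.65), were lower, and the scaffold AKAP12 (1.74) was higher. NR3C1 was at 86.3 and 82.9 CPM in shCtrl and 71.8 and 73.2 CPM in shMYCL (-0.22 ± 0.10, edgeR adjusted p = 0.13). Of 4 other androgen-repressed genes tested, 2 were higher and 2 lower, with IGFBP5 at -1.92 and the chemokine receptor ACKR3 at -1.77. The summed level of the neuroendocrine markers moved with the knockdown, from 1234 and 1075 TPM to 826 and 906 TPM, and its part in these results was not tested.

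The effects of MYCL in the lines were compared as MYCL-high minus MYCL-low, that is, C4-2B MYCL over control against NCI-H660 shCtrl over shMYCL. The means differ between the experiments, since MYCL was added in one line and removed in the other. Of the 33 induced genes measured in both lines, 13 had a lower and 3 a higher effect in C4-2B, beside 10.9% lower and 11.7% higher among the 14212 genes tested in both, and the median difference was -0.34 against -0.0079 over all genes. On the TPM scale, the share of all calls that were higher fell from 51.7 to 34.0%. The direct comparison of the fold changes of these 33 genes gave a Spearman correlation of -0.09 between C4-2B MYCL and NCI-H660 shMYCL, given as a description.

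TRPM8, HERC3 and SLC26A2 were lower both with added MYCL in C4-2B and with less MYCL in NCI-H660. Their MYCL-high minus MYCL-low effects therefore had opposite signs, -1.12 and 0.85 for TRPM8, -0.99 and 0.89 for HERC3, and -0.93 and 0.60 for SLC26A2. The differences were -1.97 ± 0.23, -1.88 ± 0.22 and -1.54 ± 0.15 (edgeR adjusted p = 0.000114, 0.000111 and 3.86e-05). PTPN21 was the gene called in both lines in directions that mirrored each other, lower with added MYCL (-1.33) and higher with less (1.06). Its MYCL-high minus MYCL-low effects did not differ past the threshold (difference -0.28 ± 0.20, edgeR adjusted p = 0.368). These effects were not scaled to the log2 fold change of MYCL itself, 8.26 in C4-2B and -3.06 in NCI-H660. Of the androgen-repressed genes, CPT1C and PELI2 differed between lines, by 1.78 ± 0.29 and 0.74 ± 0.16 (edgeR adjusted p = 0.00112 and 0.00657). CAMK1D differed by 3.06 ± 0.28. It passed the filter in C4-2B through the C4-2B MYCL libraries alone, so its call is a description. The call for PELI2 ended with limma on log2(TPM + 1), at 0.46. FKBP5 (0.36 ± 0.12, edgeR adjusted p = 0.0585) and TMPRSS2 (-1.11 ± 0.43, edgeR adjusted p = 0.0924) did not pass the test. The TMPRSS2 difference was -0.46 without NCI-H660 shMYCL replicate 1, and -2.39 and past the test (edgeR adjusted p = 0.0161) without replicate 2.

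**Figure D5:**
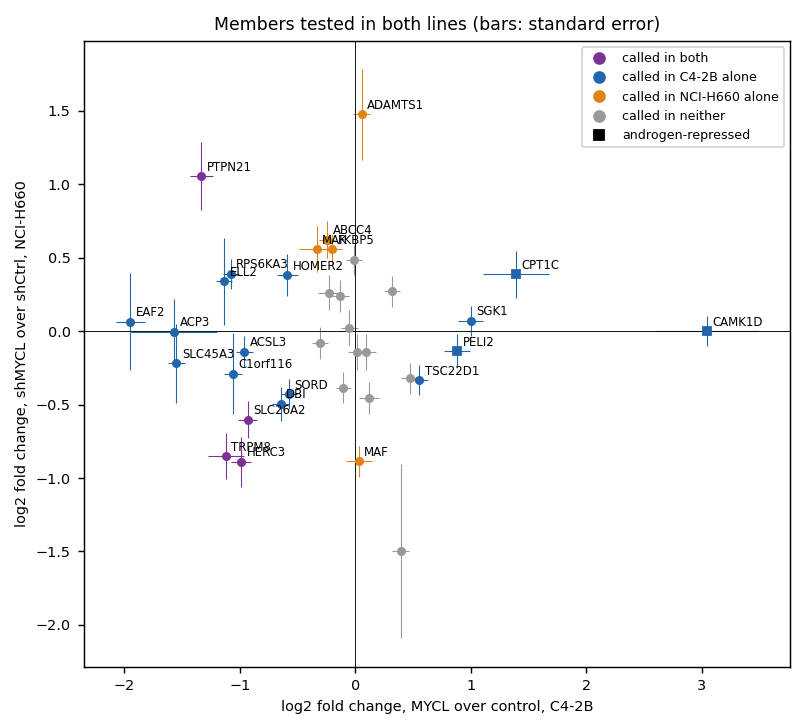
Log2 fold change in C4-2B MYCL over control (x axis) against NCI-H660 shMYCL over shCtrl (y axis) for the 36 androgen-regulated genes tested in both lines, with standard error bars and colors for the lines in which a gene was called. TRPM8, HERC3 and SLC26A2 are low on both axes, PTPN21 is low on the x axis and high on the y axis, and CAMK1D lies far right at a y value near 0.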

How the data were processed

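The authors deposited gene-level estimated counts (expected counts, 34.4% of the non-zero values not whole) and TPM values for the 8 libraries. Per the labels, RNA was poly(A)-selected, read as pairs and mapped to hg38. The aligner, the counter and its strand setting are not given in the sources used here. The authors made the deposited TPM from counts and Ensembl gene lengths, and the table ends after 65535 genes.

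Counts were rounded and tested with edgeR 4.0.16 (R 4.3.3) by quasi-likelihood, with TMM factors and filterByExpr, each line in its own fit and the comparison of lines in 1 fit of all 4 groups. P-values were adjusted over all genes tested by the Benjamini-Hochberg method. Calls required both an adjusted p under 0.05 and a log2 change of 0.5 or more in either direction. Values after ± are the SD of 2 libraries for levels and the standard error for log2 fold changes. An exact permutation of 2 against 2 libraries cannot go below p = 0.33. The code was tested on simulated data. DESeq2 1.42.0, limma 3.58.1 on log2(TPM + 1), other filters, other fold limits, a replicate block and leaving out each library were alternatives. Replicates differed by more than sampling noise in every group.

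Members, gene lists and tests were chosen with earlier results of these data known. Full values are given for KLK2, KLK3, KLK4, TMPRSS2, FKBP5, the androgen-repressed genes and members called at 1 or more on the log2 scale, in either direction. Further androgen targets are given for NR3C1, ERG, MYCL and genes called at 1.5 or more. Promoter windows are from RefSeq, and motif searches used exact letters. Some genes of these lists are not reported here.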

Additional observations from a re-analysis of the deposited data

Results flagged for a closer look

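The effect of MYCL, taken as MYCL-high minus MYCL-low on the log2 scale, differed between C4-2B and NCI-H660 for 19 androgen-regulated genes by edgeR's test of the interaction with Benjamini-Hochberg adjustment. They were picked out by that test of the difference, and the background of such calls was 22.6% of the 14212 genes. Among the androgen-induced genes, the effect was lower in C4-2B for TRPM8 (difference -1.97), EAF2 (-1.89), HERC3 (-1.88), SLC45A3 (-1.77), ACP3 (-1.58), SLC26A2 (-1.54), C1orf116 (-1.35), DBI (-1.15), ACSL3 (-1.10), SORD (-1.003), MAF (-0.86), ELL2 (-0.80) and RPS6KA3 (-0.69). It was higher in C4-2B for ADAMTS1 (1.53), SGK1 (1.07) and STK39 (0.59). Of the androgen-repressed genes it was higher for CAMK1D (3.06), CPT1C (1.78) and PELI2 (0.74). CAMK1D passed the filter in C4-2B through the C4-2B MYCL libraries alone, so its call is a description. The lines also differ in vector and the means of changing MYCL, which cannot be told apart from the line. The call for ACP3 (edgeR adjusted p = 0.0262) held in 2 of the 8 fits that left out 1 library, those without C4-2B control replicate 2 and C4-2B MYCL replicate 2, with values from -2.32 to -1.06 over the 8, and that for ELL2 ended without NCI-H660 shMYCL replicate 1 (-0.71). The calls for STK39 and PELI2 ended with limma on log2(TPM + 1), at 0.45 and 0.46. No group held enough libraries for a test of a single outlying library.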

How the results depend on the processing

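In C4-2B, 15 to 18 androgen-induced genes were called lower at the fold limit of 0.5 under every setting, and 10 with a fold limit of 1. Called higher were 1 gene with limma on log2(TPM + 1), log2(TPM + 0.1) or unfiltered TPM, 5 with a fold limit of 0 or 0.25, and 0 with a limit of 1. All genes called numbered 1940 on unfiltered TPM and 5895, 5711 and 1411 at fold limits of 0, 0.25 and 1. The median of the induced genes was -0.328 without a filter and -0.442, -0.452 and -0.446 on the TPM settings. Without 1 library it lay between -0.371 and -0.261, with 1 to 3 genes called higher. HOMER2 lost its call without C4-2B MYCL replicate 1.

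In NCI-H660, limma on TPM called 2 genes higher and 2 lower with either pseudocount (1702 and 1600 of all genes), with medians of -0.0155 and -0.0169. On unfiltered TPM, limma called 0 higher and 0 lower and 1 gene in all, with a median of -0.0152, where 19 induced genes had an unadjusted p under 0.05, and edgeR and DESeq2 called 9 and 8. Fold limits of 0 or 0.25 gave 10 lower (4204 of all genes), and a limit of 1 gave 2 higher and 0 lower (1022). The median changed sign to 0.0066 without a filter and was 0.0000 with all 4 groups in one fit. Without 1 library it lay between -0.167 and -0.0568.

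Between control lines, limma called 11 induced genes higher on each TPM setting, with medians of -1.81, -2.11 and -1.74. RPS6KA3, not called on counts at -0.14, was called higher at 0.623, 0.635 and 0.623 there. At least 10 counts in every library left 19 called lower, 8512 of all genes and a median of -1.60. The median was -2.70 with RLE or DESeq2, -2.75 with controls only, and -2.78 to -2.69 without 1 library. For the difference between lines, the median was -0.321 with RLE or DESeq2, -0.358 unfiltered, -0.293 with at least 10 counts, -0.461, -0.467 and -0.461 on TPM, and -0.411 to -0.317 without 1 library. Called higher were 1 gene on unfiltered TPM (1462 of all genes) and 5 at fold limits of 0 or 0.25, and a limit of 1 called 1368 of all genes.

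Replicate numbers did not pair the libraries, since the deviations of same-numbered libraries had correlations of -0.0189 and 0.00407. With a replicate block the medians were -0.308 in C4-2B, -0.0787 in NCI-H660, -2.75 between lines and -0.344 for the difference, and the member counts stayed within 1.5 times those without it. TMPRSS2 in NCI-H660 was called with the block (-1.59, edgeR adjusted p = 0.04). With 2 libraries a group, 1 library can set the spread of low-count genes such as STEAP4, CHRNA2, ACP3 and CAMK1D.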
